A study of Mus musculus with 5 samples.

Results

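Endothelial genes were measured in cells that had been sorted as airway ciliated cells. The set held 10 genes, Kdr, Flt1, Tek, Tie1, Eng, Cdh5, Pecam1, Esam, Emcn and Erg, taken by name as markers of vascular endothelium. They were represented by 16 probe sets annotated to 1 of these symbols alone, out of 18193 genes and 45037 probe sets without controls. The samples were 5 biological replicates of a single group, GFP+ cells sorted by flow cytometry from embryonic lungs of the FOXJ1-GFP mouse line at E17.5, each hybridised to 1 Affymetrix mouse array. In this line a FOXJ1 promoter drives GFP, so that multiciliated cells fluoresce. FOXJ1-GFP mice had been mated to the outbred ICR strain, and lungs with visible GFP were chosen before dissociation with trypsin and EDTA. No GFP- fraction and no unsorted lung is among these samples, so each gene was set against a background level and the arrays against each other. The labels do not say whether the replicates came from separate litters, and p-values therefore measure the spread between these 5 samples, which may in part be technical.

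Blood vessels are lined by endothelial cells, which at E17.5 form the dense capillary network around the developing lung epithelium. These cells receive VEGF through the receptor tyrosine kinases VEGFR1 and VEGFR2, and angiopoietins through TIE2, which pairs with the related receptor TIE1. They are joined by VE-cadherin and other adhesion molecules, and ETS transcription factors such as ERG maintain their gene expression. Multiciliated cells are epithelial and are joined by E-cadherin.

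The promoters of the 4 receptor genes are shown because 1 member, Erg, encodes an ETS factor, a protein family that binds a GGAA core. Whether such sites bear on the covariation of the members between arrays, described below, was not tested. The windows run from 250 bases before to 50 bases after the start site on GRCm38.p6, as given by RefSeq, and are written 5′ to 3′ on the strand of the gene. Capitals mark GGAA, or TTCC where the core lies on the other strand.

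Kdr (chr5:75978406-75978705, minus strand): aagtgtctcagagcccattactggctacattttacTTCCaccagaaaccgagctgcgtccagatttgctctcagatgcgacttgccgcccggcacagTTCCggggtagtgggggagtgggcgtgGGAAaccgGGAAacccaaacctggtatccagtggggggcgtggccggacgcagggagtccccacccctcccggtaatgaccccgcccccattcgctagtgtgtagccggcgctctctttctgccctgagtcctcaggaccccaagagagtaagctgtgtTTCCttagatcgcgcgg
Flt1 (chr5:147725962-147726261, minus strand): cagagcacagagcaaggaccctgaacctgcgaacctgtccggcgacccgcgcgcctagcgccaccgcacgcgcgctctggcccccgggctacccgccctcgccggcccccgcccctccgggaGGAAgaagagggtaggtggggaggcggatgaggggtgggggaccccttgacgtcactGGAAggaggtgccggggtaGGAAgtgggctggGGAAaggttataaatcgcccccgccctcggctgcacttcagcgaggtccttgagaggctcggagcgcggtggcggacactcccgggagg
Tek (chr4:94739039-94739338, plus strand): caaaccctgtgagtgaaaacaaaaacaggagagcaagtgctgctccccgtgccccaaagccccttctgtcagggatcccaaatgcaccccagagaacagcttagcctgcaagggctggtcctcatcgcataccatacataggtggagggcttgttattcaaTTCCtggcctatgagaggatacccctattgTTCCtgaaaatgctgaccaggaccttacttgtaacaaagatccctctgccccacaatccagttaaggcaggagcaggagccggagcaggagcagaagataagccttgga
Tie1 (chr4:118489800-118490099, minus strand): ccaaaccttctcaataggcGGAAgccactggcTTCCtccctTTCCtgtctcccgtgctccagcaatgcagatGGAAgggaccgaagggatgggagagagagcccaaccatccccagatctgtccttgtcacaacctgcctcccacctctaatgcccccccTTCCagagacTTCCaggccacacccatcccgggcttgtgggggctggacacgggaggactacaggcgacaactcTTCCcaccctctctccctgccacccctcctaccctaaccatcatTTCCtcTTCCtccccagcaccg

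RefSeq windows were matched for 7 of the 10 members, those without one here being Cdh5, Pecam1 and Esam. The GGAA core was found in all 9 windows of these 7 genes, with between 1 match (the first window of Erg) and 9 matches (Tie1), counted on both strands. It was also present in 96.0% of all 32851 promoter windows of that length, with a median of 3 matches. At least 6 matches were found in 15.7% of all windows, and the window of Tie1 with 9 and that of Emcn with 6 were among them. The longer form AGGAAG, which contains the GGAA core, occurred in 5 of the 9 windows and in 35.4% of all windows. The form CGGAAG occurred in 1 of the 9 and in 16.9% of all windows, and AACAGGAA in 1 of the 9 and in 2.65%. Several of the 9 windows are of Erg, so these are counts of windows and not of genes. These are matches of letters and were not compared with any measurement of binding.

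All 10 endothelial genes were above background in the sorted cells, at an adjusted p under 0.05 (limma, one-sided, adjusted over all 45037 probe sets). Of all 18193 genes, 65.6% were above background, so presence by this measure was common. The background level of 6.98 (log2) was set by 161 genes with no known use in lung epithelium, as the 95th percentile of their means. They comprised 76 chemosensory receptor genes and 85 genes restricted to other tissues. Each member lay over this level on all 5 arrays. Their probe sets had means between 1.23 and 5.07 above it, and adjusted p lay between 1.49e-09 and 9.62e-06. A signal depends on the sequence of the probe set as well as on the transcript, so the levels of different genes are not ranked.

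**Figure D1:**
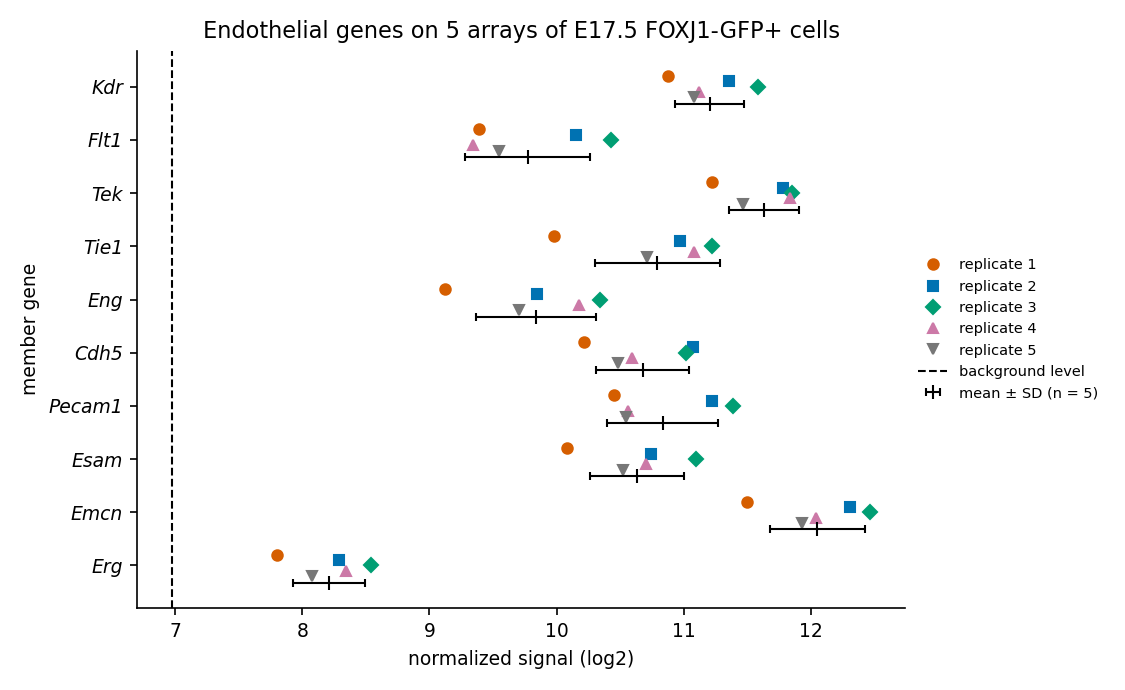
Normalized signal (log2, horizontal axis) of the 10 endothelial genes in the 5 replicate samples of sorted GFP+ cells, with the mean ± SD (n = 5) drawn under the points and the background level of 6.98 as a dashed line. Every point lies to the right of the background level, and replicate 1 is the lowest array for 9 of the 10 genes.

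Marker genes of the sorted cell type were looked at by the same measure. Of 20 listed genes of ciliated cells, 19 were above background, the exception being Spag6, and all 14 genes of epithelium were. The share over all genes was 65.6%. Some lists of other cell types passed as often, with all 10 alveolar type 2 and all 6 secretory genes above background. These counts therefore do not test the label of the sort. Foxj1, the transcription factor whose promoter drives the reporter, had a level of 12.82 ± 0.08 (SD, n = 5), and Epcam, an epithelial adhesion molecule, 13.09 ± 0.15. The endothelial genes were thus measured together with those of ciliated cells. In these bulk samples, fewer cells of a type and less RNA per cell cannot be told apart.

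The receptors of VEGF were both present. Kdr, which encodes VEGFR2, the main signalling receptor for VEGF-A, had log2 values of 10.87, 11.36, 11.58, 11.12 and 11.08 on replicates 1 to 5 (mean 11.20 ± 0.27, SD, n = 5; adjusted p = 2.54e-09). Flt1, which encodes VEGFR1, a receptor that binds VEGF-A tightly and signals weakly, had 9.39, 10.15, 10.43, 9.34 and 9.55 (mean 9.77 ± 0.49; adjusted p = 8.66e-07). Both genes were highest on replicates 3 and 2. They differed on replicate 4, where Flt1 had its lowest value and Kdr lay close to its mean.

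Both TIE receptors were present as well. Tek, which encodes the angiopoietin receptor TIE2, had 11.22, 11.78, 11.85, 11.84 and 11.47 on replicates 1 to 5 (mean 11.63 ± 0.28, SD, n = 5; adjusted p = 1.49e-09). Tie1, which encodes its partner, had 9.98, 10.97, 11.22, 11.08 and 10.71 (mean 10.79 ± 0.49; adjusted p = 1.09e-07). The order of the arrays was the same for these receptors, with replicate 1 lowest, then replicates 5, 2 and 4, and replicate 3 highest. Between its lowest and its highest array Tie1 spanned 1.24 on the log2 scale, a factor of 2.36, and Tek 0.62, a factor of 1.54. Eng encodes endoglin, a co-receptor for BMP and TGF-β ligands, and had 9.12, 9.85, 10.34, 10.18 and 9.71 (mean 9.84 ± 0.47; adjusted p = 6.00e-07). It followed the array order of the TIE receptors.

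Adhesion molecules of the endothelial junction formed the next group. Cdh5, which encodes VE-cadherin, had 10.22, 11.07, 11.01, 10.59 and 10.48 on replicates 1 to 5 (mean 10.68 ± 0.36, SD, n = 5; adjusted p = 2.41e-08). Pecam1, the adhesion molecule CD31, had 10.45, 11.22, 11.39, 10.56 and 10.55 (mean 10.83 ± 0.44; adjusted p = 5.06e-08). Esam, an immunoglobulin-family adhesion molecule of endothelium and platelets, had 10.08, 10.75, 11.10, 10.70 and 10.52 (mean 10.63 ± 0.37; adjusted p = 2.91e-08). All 3 genes were lowest on replicate 1, and replicates 2 and 3 were their highest arrays. For Cdh5 and Pecam1 a gap separated replicates 2 and 3 from the other arrays, whereas for Esam replicate 4 lay only just under replicate 2.

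The sialomucin and the transcription factor complete the set. Emcn encodes endomucin, a glycoprotein of capillary and venous endothelium, and had 11.50, 12.31, 12.47, 12.04 and 11.93 on replicates 1 to 5 (mean 12.05 ± 0.37, SD, n = 5; adjusted p = 3.84e-09). Erg encodes an ETS factor of endothelial cells and had 7.80, 8.29, 8.54, 8.35 and 8.07 (mean 8.21 ± 0.28; adjusted p = 9.62e-06). Erg lay 1.23 above background. Its call ended at a stricter level of 8.97, the 99th percentile of the same 161 genes, since its mean was then below the level (-0.76). The other 9 members kept theirs.

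Genes with more than 1 probe set gave further measurements of the same transcripts. Of the 16 probe sets, 14 were above background, against 49.5% of all probe sets. The exceptions were 1 of 4 for Flt1, at 7.18 ± 0.30 (SD, n = 5; adjusted p = 0.115, limma), and 1 of 2 for Cdh5, at 7.28 ± 0.48 (adjusted p = 0.116). The second probe set of Eng had 7.49, 8.30, 8.67, 8.30 and 8.30 on replicates 1 to 5, again lowest on replicate 1 and highest on replicate 3. The second probe set of Erg, with a mean of 8.04 ± 0.46, deviated from it by -0.05, 0.36, 0.57, -0.43 and -0.45, highest on replicate 3 as well, but lowest on replicates 5 and 4. The probe sets of Erg thus disagreed on replicates 4 and 5. Those of Flt1 disagreed on replicate 4, which was lowest for the probe set given above and for 1 other, whereas another that passed had 8.80, 9.55, 9.63, 9.24 and 9.02 and was lowest on replicate 1. Over all 16 probe sets, 12 were lowest on replicate 1, and 13 were highest on replicate 3 and the other 3 on replicate 2. Some of these probe sets measure the same gene and some were not above background, so they are not separate observations. The arrays counted were chosen after the values had been seen.

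**Figure D2:**
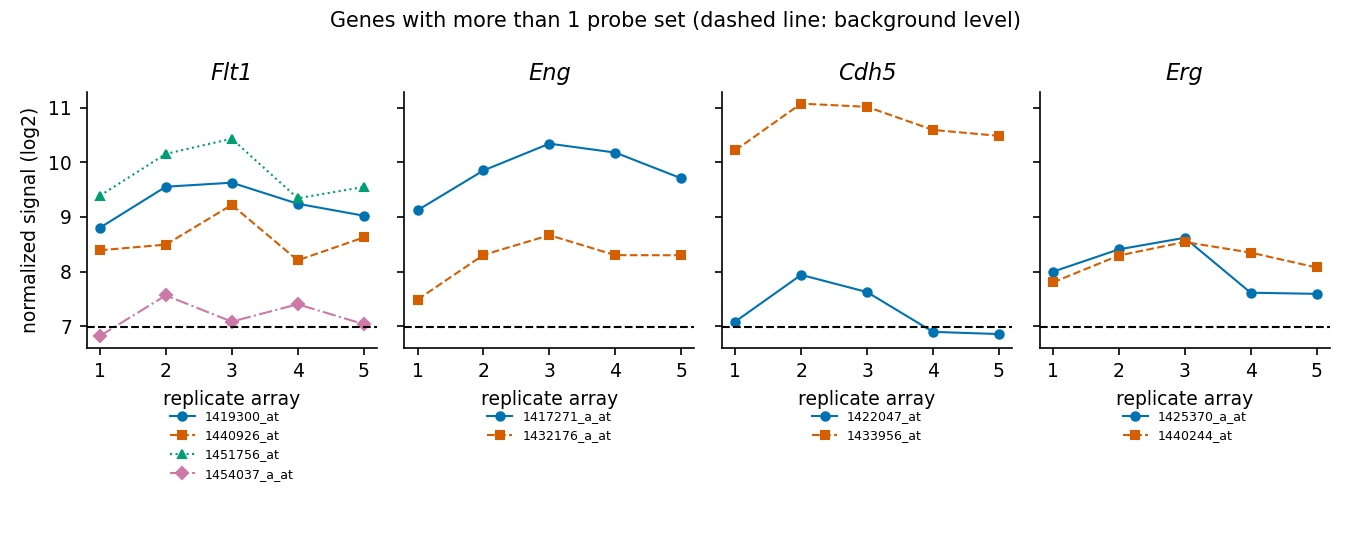
Normalized signal (log2, vertical axis) on the 5 replicate arrays (horizontal axis) for each probe set of Flt1, Eng, Cdh5 and Erg, with the background level of 6.98 dashed; lines only join the values of 1 probe set, since replicates have no order. Of the 10 probe sets drawn, all are highest on replicate 2 or 3.

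Between the replicate arrays the endothelial genes varied together. Relative to each gene's own mean over the 5 arrays, all 10 members were below it on replicate 1, with deviations between -0.81 (Tie1) and -0.33 (Kdr), and all 10 were above it on replicate 2 (0.01 for Eng to 0.40 for Cdh5) and on replicate 3 (0.22 for Tek to 0.66 for Flt1). All 10 were below it on replicate 5, between -0.29 (Pecam1) and -0.08 (Tie1). Replicate 4 was the only array on which the members parted, with 5 above and 5 below their means. The mean deviation of the 10 genes was -0.50, 0.21, 0.43, 0.02 and -0.16 on replicates 1 to 5. It spanned 0.93 on the log2 scale, a factor of 1.90 between replicate 3 and replicate 1. Without replicate 1 the span was 0.59, and with the median over the members in place of the mean it was 0.86.

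**Figure D3:**
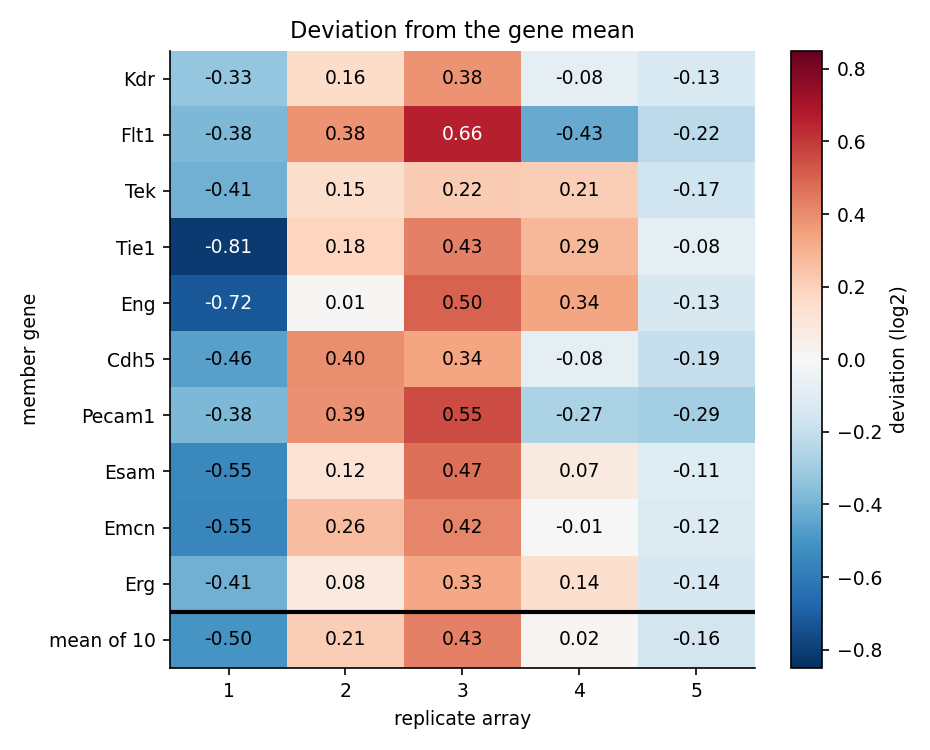
Deviation of each endothelial gene from its own mean over the 5 arrays (log2, colour and printed value), with replicate arrays in columns, genes in rows and the mean of the 10 genes in the lowest row. Columns 1 and 5 are negative for all 10 genes and columns 2 and 3 positive for all 10, while column 4 holds both signs.

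Counted by array, 9 of the 10 members were lowest on replicate 1 and 9 were highest on replicate 3, and 8 met both conditions. Among the 11926 genes above background, 20.7% were lowest on replicate 1, 20.3% were highest on replicate 3 and 9.22% met both. These arrays were chosen after the values had been seen, and the counts describe this set of arrays. Flt1, lowest on replicate 4, and Cdh5, highest on replicate 2, were the exceptions.

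In each of the 45 pairs of members the covariance over the 5 arrays was positive. In 20 pairs both genes had the same sign of deviation on all 5 arrays, and in the other pairs on 4 of them. The mean covariance of a pair was 0.123 and the mean variance of a member 0.154 in squared log2 units, so that a share of 0.80 of the members' variance between arrays was common to the set. Shares of this size were also found in lists of other cell types, with 0.79 for 6 platelet and megakaryocyte genes, 0.70 for 10 alveolar type 2 genes and 0.67 for 11 white blood cell genes. The share of the members was 0.67 without replicate 1 and 0.91 without replicate 4. Once the mean deviation of each array was subtracted, the SD pooled over the members was 0.18. Before this, the plain mean of the members' SDs, a slightly different measure, was 0.38. The SDs of the members, from 0.27 for Kdr to 0.49 for Flt1, were on the high side for these arrays: 17.2% of genes above background had an SD of at least that of Kdr, and their median SD was 0.16.

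After the common part the members still differed, most of all on replicate 4. The SD over the 10 members around their mean deviation was 0.16, 0.14, 0.12, 0.24 and 0.06 on replicates 1 to 5. On replicate 1 the deviations of -0.81 for Tie1 and -0.72 for Eng lay well below the mean of -0.50. Tek, Tie1, Eng and Erg shared one array order, with replicate 4 between replicates 2 and 3. Kdr, Pecam1, Esam and Emcn shared another, with replicate 4 between replicates 5 and 2. On replicate 4 the deviation was 0.34 for Eng, 0.29 for Tie1, 0.21 for Tek and 0.14 for Erg, and it was -0.43 for Flt1, -0.27 for Pecam1 and -0.08 for both Kdr and Cdh5. For Erg, Flt1 and Eng this rested on the probe set used: the second probe set of Eng deviated by 0.09 on replicate 4 and had the array order of Kdr, Pecam1, Esam and Emcn. Emcn followed the mean of the other 9 members most closely, with a root mean square difference of 0.04 over the 5 arrays, and Flt1 least, with 0.27.

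The distances between arrays over the members matched those over all probe sets in part. Over all probe sets, the difference between 2 arrays had its smallest SD for replicates 1 and 2, at 0.31, and its largest for replicates 1 and 3, at 0.48. For the 10 members, replicates 1 and 3 were also farthest apart, with a root mean square difference of 0.95, and replicates 4 and 5, with an SD of 0.31 over all probe sets, were closest at 0.26. The measures differed for other pairs: replicates 1 and 2 lay a root mean square difference of 0.73 apart, and replicates 2 and 3, with an SD of 0.46 over all probe sets, only 0.26 apart. The medians of the arrays lay between 7.18 and 7.26 in the deposited values.

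Other genes of the endothelium, none of them a member, behaved like the set. Of 49 measured genes on a list of endothelial genes, 45 were above background, against 65.6% of all genes. Of these 45, 39 were lowest on replicate 1, against 20.7% of genes above background, and 35 were highest on replicate 3, against 20.3%. Their mean deviation was -0.44, 0.15, 0.34, 0.08 and -0.13 on replicates 1 to 5, within a root mean square difference of 0.06 of that of the members. The span was 0.78, and 0.47 without replicate 1, and the common share of these genes was 0.66. All 13 receptor and signalling genes passed, among them Flt4, the VEGF-C receptor of lymphatic and some other endothelium, at 10.07 ± 0.34 (SD, n = 5), and Ptprb, a phosphatase that acts on TIE2, at 11.15 ± 0.35. So did all 10 genes of the surface, enzyme and capillary group, among them Plvap, a protein of endothelial fenestrae and caveolae, and Nos3, the endothelial nitric oxide synthase. The adhesion genes Cldn5, a claudin of tight junctions, and Icam2 also passed, at 11.99 ± 0.42 and 11.74 ± 0.34, and were lowest on replicate 1 and highest on replicate 3. Plvap and Nos3 were lowest on replicate 1 too, but Plvap was highest on replicate 4 (11.01) and Nos3 on replicate 5 (8.39). The 4 genes that were not above background were Angpt2 (6.79 ± 0.23; adjusted p = 1.0), a TIE2 ligand made by endothelium, Gja5, which encodes a connexin of arteries, and the selectins Sele and Selp of activated endothelium.

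Among the endothelial transcription factors all 6 passed, against 65.6% of all genes. Fli1, the ETS factor most closely related to Erg, had 9.52, 9.83, 10.32, 9.44 and 9.55 on replicates 1 to 5, lowest on replicate 4 like Flt1. Sox7 had 9.30, 9.98, 10.05, 9.32 and 9.31. Both were high on replicates 2 and 3 and level on the other arrays, unlike Tek and Tie1, which were also high on replicate 4. Of the 4 lymphatic genes, Lyve1, a hyaluronan receptor, had 10.92, 11.59, 11.69, 11.26 and 11.05 and followed the members, whereas Prox1, the transcription factor that sets lymphatic identity, had 9.75, 9.71, 9.74, 9.16 and 9.15 and was highest on replicate 1. Among the 45 endothelial genes above background, those least like the members were Nos3, Prox1, Tal1, Notch4 and Apln, with root mean square differences of 0.32 to 0.41.

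The ligands and partners of the members, many of which epithelium and fibroblasts also use, were mostly present and shared the pattern only in part. Of 30 such genes 24 were above background, against 65.6% of all genes. Of these 24, 10 were lowest on replicate 1, against 20.7% of genes above background, and 9 were highest on replicate 3, against 20.3%. Their mean deviation spanned 0.14, over genes that went different ways, with a common share of 0.07. Vegfd, a ligand of VEGFR3, had 9.46, 10.14, 10.44, 10.03 and 9.80 and was close to the members. Neither ligand of TIE2 on this list passed, with Angpt1 at 7.15 ± 0.42 and Angpt4 at 5.62 ± 0.10 (SD, n = 5), and nor did Gdf2 and Bmp10, which encode the circulating ligands of endoglin. All 5 VEGF-family ligands passed. Vegfa, the ligand of VEGFR1 and VEGFR2, had 9.79, 10.24, 10.24, 9.98 and 10.07, and Vegfb, a ligand of VEGFR1, had 9.02, 8.80, 8.49, 8.81 and 8.59, highest on replicate 1. The co-receptors Nrp1 and Nrp2 were at 12.21 ± 0.35 and 10.11 ± 0.15. Both were lowest on replicate 1 and highest on replicate 3, as most members were, and they spanned 0.93 and 0.39. The ETS factors Ets1 and Ets2 were at 11.57 ± 0.19 and 13.67 ± 0.11. Their lowest and highest values lay on the same arrays, over spans of 0.51 and 0.31. Bmpr2, a BMP receptor, was at 12.13 ± 0.05. The catenin Ctnnb1, which binds VE-cadherin and E-cadherin alike, was at 14.00 ± 0.07 and spanned 0.17.

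Genes of several other cell types also varied between the arrays. Of all genes 65.6% were above background, so the counts given here are not read as presence or absence of a cell type. Those of alveolar type 2 cells (10 of 10 measured above background) and of white blood cells (11 of 15, not Ptprc, Aif1, C1qa or Itgam) were lowest on replicate 1 as well, with mean deviations of -0.56 and -0.58 there. Both were highest on replicate 5, at 0.56 and 0.36, where all 10 endothelial members were below their means. Genes of platelets and megakaryocytes, cells that also express Pecam1, Erg and Esam, were mostly above background (6 of 7, not Gp6). Among them Pf4 was at 11.47 ± 0.30 (SD, n = 5) and Itga2b at 9.81 ± 0.37. The mean deviation of the 6 genes was highest on replicate 3 (0.57) and lowest on replicate 2 (-0.42), on which the members were high. Genes of smooth muscle and pericytes (10 of 12, not Cnn1 or Abcc9) had a mean deviation of -0.21, 0.06, 0.21, 0.10 and -0.16, with replicates 1 and 5 lowest and replicate 3 highest as for the members, over a span of 0.42. The part of these cell types in the variation of the members was not tested. Over all 5 arrays the spans were 1.12 for the alveolar type 2, 0.94 for the white blood cell and 0.99 for the platelet genes. Each was larger than the 0.93 of the members. Without replicate 1 the span was 0.64 for the alveolar type 2 and 0.53 for the white blood cell genes. It was 0.61 for the alveolar type 2 genes without replicate 5, and 0.49 for the platelet genes without replicate 3. Genes of alveolar type 1 cells (8 of 8), secretory cells (6 of 6), fibroblasts (10 of 11, not Lum) and mesothelium (4 of 6) spanned 0.40, 0.38, 0.37 and 0.54, with 0.24 for alveolar type 1 without replicate 1, 0.17 for secretory without replicate 4 and 0.24 for mesothelial without replicate 3. The mean deviation of the fibroblast genes was lowest on replicate 1 (-0.17) and highest on replicate 3 (0.20), as that of the members was. On replicates 2, 4 and 5 it was -0.01, -0.12 and 0.10, where the members had 0.21, 0.02 and -0.16. Lowest on replicate 1 were 6 of the 10 fibroblast genes, against 20.7% of genes above background. Highest on replicate 3 were 7 of 10, against 20.3%. Their common share was 0.16. Among genes of red blood cells only Alas2 of 8 passed.

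**Figure D4:**
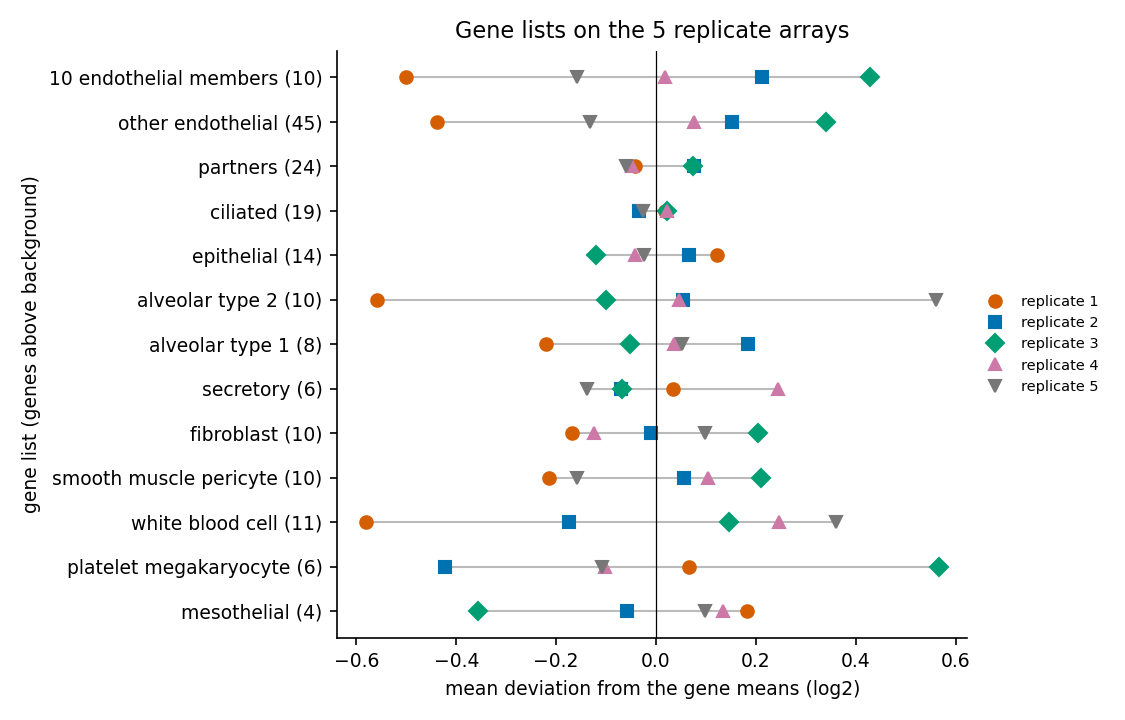
Deviation from the gene mean (log2, horizontal axis), averaged for each array over the genes of each list that were above background (number in parentheses); the grey line joins the lowest and the highest array of a list, and the red blood cell list, with 1 such gene, is left out. The members span 0.93 and the other endothelial genes 0.78 in the same array order, and the ciliated genes 0.06.

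The genes of the sorted population did not move as a group. The mean deviation of the 19 ciliated genes spanned 0.06, against 0.93 for the endothelial members, but it averages genes that went different ways. Most single ciliated genes varied little, with a median SD of 0.09, against 0.37 for the members. The exceptions were Dnah5, which encodes an outer dynein arm heavy chain and spanned 1.61 (SD 0.69, n = 5), with replicate 1 highest and replicate 3 lowest, and Spag17, a central pair gene, which spanned 0.98 with replicate 3 highest. The mean deviation of the 14 epithelial genes spanned 0.24, with replicate 1 highest (0.12) and replicate 3 lowest (-0.12), and their median SD was 0.11. Among them the claudin gene Cldn4 spanned 1.65 and Nkx2-1, which encodes a lung epithelial transcription factor, 0.77. The summed linear signal of the 10 members differed by a factor of 1.86 between its highest and lowest array. That of the 20 measured ciliated genes differed by a factor of 1.06. The lists lay at different signals, with a median level of 12.77 for the ciliated genes and 10.73 for the members. Whether the signal level bears on these spreads was not tested.

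Genes whose deviations lay closest to the mean of the members were then listed from all 11916 other genes above background. The measure was the root mean square difference over the 5 arrays, and a gene with the same value on every array would have a difference of 0.32. The closest 10 had differences between 0.02 and 0.04. They were Cmtm3, Bcl6b, Fzd4, Myocd, Vegfd, Sparcl1, Lmo2, Ppp1r18, Ppp1r16b and Rasgrp3. Cmtm3, a membrane protein of the MARVEL family, had 9.48, 10.22, 10.39, 9.98 and 9.78 on replicates 1 to 5. Bcl6b, a transcriptional repressor, had 11.26, 11.90, 12.13, 11.76 and 11.56, and Fzd4, a Frizzled receptor, 10.29, 10.95, 11.24, 10.83 and 10.62. Each of the 3 was lowest on replicate 1 and highest on replicate 3. Lmo2, a partner of Tal1 in endothelial and blood cells, was on the endothelial list, and Vegfd on that of the partners. Myocd is a co-factor of smooth muscle genes.

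Close similarity to the members was uncommon among the genes above background. A difference no larger than that of the median member to the other 9, which was 0.14, was found for 159 genes, or 1.33%. The same held for 21 of the 45 other endothelial genes that were above background, for 3 of 24 partners and 2 of 10 fibroblast genes, and for none of the 19 ciliated, 14 epithelial, 10 alveolar type 2, 11 white blood cell and 6 platelet genes. The fibroblast gene Pdgfra, with 9.23, 9.79, 10.12, 9.71 and 9.60, was among the closest 30. With 5 arrays many profiles can look alike, and these distances are given as a description.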

How the data were processed

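RNA of sorted GFP+ cells was amplified with NuGEN Ovation kits, labelled with biotin and hybridised to Affymetrix mouse arrays, and analysed with Bioconductor in R. The authors deposited 1 value per probe set and array, read here as log2 from its range (2.37 to 15.24) and with near-equal quantiles between arrays. Neither the scale nor the method of summary and normalization is given in the sources used here. No value was missing and no 2 arrays were identical. Groups and replicate numbers came from the sample labels.

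Of 45101 probe sets, 64 controls were left out, and 34945 carried 1 gene symbol in the platform annotation. A gene was represented by its probe set with the highest mean. The mean of each probe set was fitted in limma 3.58.1 (lmFit, eBayes; R 4.3.3), tested one-sided against the background level, and adjusted by Benjamini-Hochberg over all probe sets without controls. Of the 161 genes that set this level, 6 were themselves called. Other steps used Python 3.11.15, numpy 2.4.6, pandas 2.3.3 and scipy 1.17.1. The fit and the common share were tested on simulated data. The number of arrays limits the precision, and 5 arrays are too few for correlations with a test. Promoter windows came from RefSeq (GRCm38.p6), and the Entrez identifiers of all 16 member probe sets gave the same symbols there.

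The members, the gene lists and the tests were chosen with earlier results of these data known. Named are all members, the first 2 genes of each role or list, up to 5 that go against the rest of a list, and the 10 genes closest to the members. Pdgfra and the genes of a list that did not pass were named with their values in view.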

Additional observations from a re-analysis of the deposited data

Results flagged for a closer look

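Examined were 86 sets of 5 values: every member probe set, each gene list as a whole and the genes named by rule. Not every gene of the lists was examined singly. In 1 set a value lay far from the others. Apln, which encodes the apelin ligand of endothelial cells, had 7.05 on replicate 5 against values from 7.67 to 7.91 on the other arrays. Chance alone sets apart about 1 in 20 such groups. No member gene had such an array.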

How the results depend on the processing

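All 10 members were above background with all probe sets averaged per gene, when arrays were quantile-normalized again or centred on their median, with receptor genes or tissue-restricted genes alone as background, with a cut-off of 5, when all 5 arrays had to exceed the level, and without each replicate in turn. At the 99th percentile Erg lay below the level (-0.76) and 9 members passed. With suffixed probe sets left out, Eng, Pecam1 and Emcn had no probe set and the other 7 passed. The common share of the members' variance lay between 0.67 and 0.91 when single replicates were left out, and between 0.78 and 0.81 under the other alternatives. The span of the members' mean deviation lay between 0.59, without replicate 1, and 0.98, after quantile normalization. Of 13 other lists, 9 had a smaller span than the members, and 9 to 11 under the alternatives. Other endothelial genes above background numbered 33 to 47 and partner genes 20 to 29. The share of all genes above background moved too, from 48.3% at the 99th percentile to 81.3% with the cut-off of 5. Of 137 values of single members under alternatives, 136 kept their direction and their side of the threshold. No paired analysis was possible because there is only 1 group.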
